A study of Mus musculus with 11 samples.

Results

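The kinesin genes of the mouse, which encode the microtubule motors of the kinesin superfamily and the light chains of kinesin-1, were examined in the embryonic cortex with and without the chromatin remodeller gene Chd8. Members were all loci with a symbol of the form Kif and a number, Kifc and a digit, or Klc and a digit, which gave 44 of the 24138 loci of the table. They were sorted by known role into 13 mitotic motors, 14 motors and light chains of neuronal transport, 6 motors of cilia and 11 others. Of the 44, 36 reached a mean of 1 FPKM (fragments per kilobase of transcript, scaled to library size) over the libraries and entered the test.

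RNA came from microdissected cortex of embryos at E14.5, an age in days of gestation. The cKO group was 2 libraries with both Chd8 alleles floxed (c/c) and Emx1-cre. Its 3 controls carried floxed alleles without the Cre label, c/+ in control 1 and c/c in controls 2 and 3, so Cre and the deletion cannot be told apart. One label protocol of these samples names an Eed cKO, where every title and genotype names Chd8. Emx1-cre acts in dorsal telencephalic progenitors and their descendants, and cells of the dissected tissue from other lineages keep Chd8. The labels do not say whether a library came from 1 embryo or from a pool, so the spread between libraries may be technical in part.

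Chd8 itself was at 31.5, 30.02 and 31.8 FPKM across the controls and 19.3 and 15.1 FPKM across the cKO libraries, lower in each cKO library than in any control. Library values are listed here in the order control 1, 2 and 3, then cKO 1 and 2. FPKM summed to between 418191 and 484296 per library. Among the cell type markers, postmitotic neurons were well represented (8 of 8 tested, summed level 2177 to 2834 in the cKO and 2321 to 2786 in the controls), as were radial glia (8 of 8, 1404 to 1493 in the cKO and 1344 to 1873 in the controls). Endothelial and blood markers (7 of 7 loci) summed to 1256 to 1338 in the cKO and 1224 to 1410 in the controls, also overlapping. The overlapping sum of the radial glia hides differences between markers. Of the 8, 3 (Hes1, Nes and Vim) had both cKO values below every control and 1 (Fabp7) had both above. Over all tested loci these shares were 15.6% and 13.4%. Further marker sums differed without overlap. Microglia (8 of 8 tested) summed to 80.2 to 85.2 in the cKO and 26.4 to 43.9 in the controls, the ventral telencephalon (8 of 8) to 453 to 496 in the cKO and 225 to 352 in the controls, and intermediate progenitors (5 of 5) to 152 to 206 in the cKO and 213 to 454 in the controls. For the intermediate progenitors, cKO 1 lay next to control 1 (206 against 213). Of their 5 markers, 3 had both cKO values below every control, and Btg2 and Insm1 overlapped between the groups. Of the 8 microglia markers, 7 had both cKO values above every control, as had 7 of the 8 ventral markers. Cx3cr1 was the exception among the microglia markers, with cKO 1 the highest and cKO 2 the lowest library (4.58 and 0.875 FPKM). Gad1 was the exception among the ventral markers. No marker of these lists was at 0 in any library, and the part of these cell types in the results below was not tested. In bulk tissue, fewer cells of a type and less RNA per cell cannot be told apart.

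Kinesins turn ATP hydrolysis into steps along microtubules, most of them toward the plus end, while the kinesin-13 members depolymerise microtubule ends instead. Dividing cells use one set to build the spindle, move chromosomes and complete cytokinesis, and these genes are transcribed mainly around mitosis. Postmitotic neurons use another set to carry vesicles, organelles and RNA into axons and dendrites. The cortical wall at this age holds both kinds of cell, with progenitors dividing at the ventricle and young neurons extending axons above them.

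No kinesin locus passed the adjusted threshold. Across the 12672 tested loci, limma called 0 of the 36 tested members at an adjusted p under 0.05, where 0.0473% of all tested loci passed (6 loci). The smallest adjusted p of a member was 0.575. At an unadjusted p under 0.05 there were 3 members (Kif26b, Kif21a and Klc2, all lower in the cKO), where 7.45% of all tested loci reached that level. The authors' deposited table called Kif26b alone, as lower, among the 38 members tested there, where 4.21% of the loci tested there were called in either direction. The exact two-sided permutation test of a single locus cannot go below p = 0.1 with 3 and 2 libraries.

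The 12 tested mitotic motors did not separate the groups. In none of them did both cKO values lie below, or above, every control, where 15.6% and 13.4% of all tested loci did so. Their median log2 change (cKO minus control on log2(FPKM + 1), which understates changes of low genes) was 0.06, against -0.02 for all tested loci. Upper quartile scaling gave 0.109 against 0.02, and quantile scaling 0.105 against 0.02. A difference among the controls was larger. Control 1 was the lowest of the 5 libraries in 12 of 12 mitotic motors, where it was the lowest in 19.0% of all tested loci. It was the only c/+ library, so its genotype cannot be told apart from other differences of that library. A locus with control 1 lowest cannot have both cKO values below every control, so the absence of that pattern here follows from control 1. Both cKO values lay below controls 2 and 3, the c/c controls, in 6 of the 12 motors, where 28.6% of all tested loci had that pattern. The 12 motors are values of the same libraries and do not count as 12 separate observations. The summed level of the mitotic motors was 119, 219 and 189.6 FPKM across the controls and 160.2 and 183 FPKM across the cKO libraries. Both cKO sums therefore lay inside the control range, above control 1 and below controls 2 and 3. In 6 of the 12 motors both cKO values lay within the range of the controls, where 28.6% of all tested loci had that pattern.

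Kif11, the kinesin-5 that slides antiparallel microtubules apart and so makes the spindle bipolar (chromosome 19, 37376382 to 37421863 in GRCm38, the assembly that mm10 names), was at 16.6, 27.7 and 26.5 FPKM across the controls and 24.6 and 29.8 FPKM across the cKO libraries. Its mean was 27.2 ± 3.70 in the cKO (SD, n = 2) against 23.6 ± 6.09 in the controls (SD, n = 3), a log2 change of 0.22 (SE 0.25, adjusted p = 0.739). Control 1 was the lowest and cKO 2 the highest library. Kif15, the kinesin-12 that works beside Kif11 to keep the poles apart, showed the same order at its ends, at 9.73, 14.48 and 13.8 FPKM across the controls and 11.98 and 14.7 FPKM across the cKO libraries.

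Kif22, the chromokinesin that pushes chromosome arms toward the spindle equator, had the highest mean level of the class. It was at 22.6, 48.4 and 38.7 FPKM across the controls and 30.7 and 31.5 FPKM across the cKO libraries, a log2 change of -0.16 (SE 0.32). The controls spanned a wider range than the distance between the group means. Kif4, the other chromokinesin and a partner of Prc1 in the spindle midzone, was at 13.4 ± 0.839 against 13.4 ± 3.65 (cKO against control), with a change of 0.04 (SE 0.25). A related pseudogene, Kif4-ps, could share reads with it.

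Motors that act on microtubule ends also overlapped between the groups. Kif18a, which damps the oscillation of chromosomes at metaphase, was at 4.77, 6.29 and 6.61 FPKM across the controls and 6.24 and 7.92 FPKM across the cKO libraries, and its change of 0.23 (SE 0.19, adjusted p = 0.658) ranged from 0.08 without cKO 2 to 0.38 without cKO 1. Its relative Kif18b, which limits astral microtubules, was at 10.9 ± 1.003 against 11.99 ± 4.59. Kif2c, the depolymerase that corrects wrong kinetochore attachments, was at 10.9, 21.6 and 18.5 FPKM across the controls and 14.1 and 15.3 FPKM across the cKO libraries. The related Kif2b was listed at 0 in every library. Kifc1, a minus end motor that focuses spindle poles, was at 7.32, 17.95 and 13.1 FPKM across the controls and 10.7 and 10.1 FPKM across the cKO libraries, with control 2 far above the rest. Kifc1 has a close copy, Kifc5b, with a locus of its own in the table, so reads shared between them leave its level uncertain.

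The same held for motors of late mitosis. Kif23, which forms centralspindlin with Racgap1, was at 10.8, 18.7 and 17.1 FPKM across the controls and 13.8 and 16.4 FPKM across the cKO libraries, with nearly equal group means (change -0.01, SE 0.25), which gave 0.04 under either other scaling. Kif20a, which brings Aurora B to the central spindle, was at 13.6, 22.5 and 21.1 FPKM across the controls and 17.2 and 23.3 FPKM across the cKO libraries. Kif20b, whose loss in mice impairs abscission and gives a small cortex, was at 3.71, 5.22 and 5.39 FPKM across the controls and 5.38 and 5.49 FPKM across the cKO libraries, with a change of 0.17 (SE 0.19). Kif14, which acts with citron kinase in cytokinesis, was the lowest tested motor of the class at 1.81, 3.03 and 2.61 FPKM across the controls and 2.44 and 3.39 FPKM across the cKO libraries (change 0.17, SE 0.23).

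**Figure D1:**
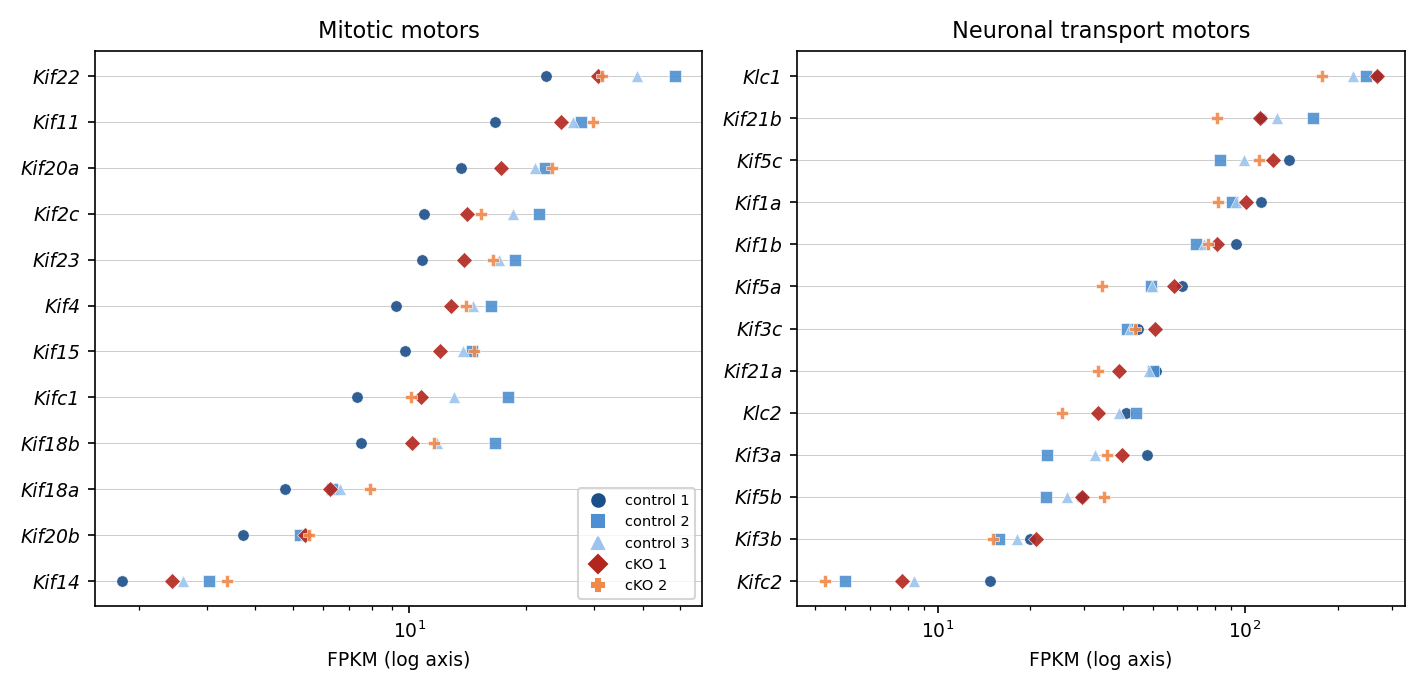
FPKM of each tested mitotic motor (left, 12 loci) and neuronal transport motor (right, 13 loci) on a log axis, with 1 symbol per library. Control 1 (dark blue circle) is the lowest library in all 12 mitotic motors. On the right, the cKO symbols (red diamond, orange plus) lie clear to the left of every control for Kif21a and Klc2. There cKO 2 is the leftmost symbol in 8 of 13 rows, and the share of all tested loci with cKO 2 lowest was not counted.

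The sequences at the start sites of the mitotic motors are shown as a description. Whether they bear on the library that was lowest in these motors was not tested. Genes of late cell cycle phases often carry a cell cycle homology region (CHR), searched here as TTTGAA, and a CCAAT box, searched as CCAAT, each on both strands. RefSeq promoters (GRCm38.p6, 250 bases before to 50 after the start) were found for 35 of the 44 members. The 12 mitotic genes among them include Kif2b, which was not tested for expression, and lack Kif20a. TTTGAA occurred in 10 of the 12 mitotic genes with a promoter entry, in 1 of 9 transport genes (Kif1a), in 1 of 5 cilium genes (Kif27) and in 1 of 9 others (Kif26b). It occurred in 17.9% of all 32851 promoters, and in 20.2% of all genes with an entry. Between 80 bases before and 40 after the start it occurred in 8 of the 12 mitotic genes and in 7.08% of all genes, and CCAAT in 7 of the 12 and in 21.6% of all genes. No match of one motif overlapped a match of the other in the members' promoters. A match is a description of the letters and not evidence of binding, and genes with several entries have more chances to hold one.

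The windows below run 5′ to 3′ in the direction of transcription, from 80 bases before to 40 after the start, with each match to either motif or its reverse complement in capitals. They show 5 mitotic motors with a CHR match near the start, then Kif21a, a transport motor with none, and Kif26b, the member called in the authors' deposited table.
Kif11 (chr19:37376302-37376421, plus strand): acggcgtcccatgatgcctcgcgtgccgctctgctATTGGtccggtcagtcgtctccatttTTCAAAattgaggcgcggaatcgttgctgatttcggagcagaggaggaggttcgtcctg
Kif15 (chr9:122951001-122951120, plus strand): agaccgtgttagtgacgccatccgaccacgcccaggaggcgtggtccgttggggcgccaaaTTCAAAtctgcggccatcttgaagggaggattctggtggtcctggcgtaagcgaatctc
Kif22 (chr7:127042381-127042500, minus strand): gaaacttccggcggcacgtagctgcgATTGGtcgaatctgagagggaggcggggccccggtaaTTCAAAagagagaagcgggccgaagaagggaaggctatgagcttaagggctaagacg
Kif23 (chr9:61946760-61946879, minus strand): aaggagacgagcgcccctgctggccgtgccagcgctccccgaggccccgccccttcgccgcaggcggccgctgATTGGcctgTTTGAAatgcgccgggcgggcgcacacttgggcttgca
Kif4 (chrX:100625985-100626104, plus strand): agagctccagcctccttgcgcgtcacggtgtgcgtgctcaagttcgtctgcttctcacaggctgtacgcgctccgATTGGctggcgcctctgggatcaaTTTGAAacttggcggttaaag
Kif21a (chr15:91049912-91050031, minus strand): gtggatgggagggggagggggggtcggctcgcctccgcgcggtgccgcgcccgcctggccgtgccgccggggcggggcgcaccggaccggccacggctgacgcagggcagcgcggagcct
Kif26b (chr1:178529045-178529164, plus strand): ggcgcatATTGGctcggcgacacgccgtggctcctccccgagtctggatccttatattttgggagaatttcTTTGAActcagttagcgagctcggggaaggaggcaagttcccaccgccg

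In Kif11 and Kif15 the CHR match begins 19 bases before the start and in Kif22 17 bases before it, each on the reverse strand. In Kif23 and Kif4 it lies just inside the transcript. Of these 5, Kif15 has no CCAAT match in the window. Kif26b, which is not a mitotic motor, holds both motifs.

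Motors and light chains of neuronal transport had higher levels than the mitotic motors on the same FPKM scale. Their summed level was 1038, 907 and 883 FPKM across the controls and 964 and 753 FPKM across the cKO libraries. Control 1, lowest in the mitotic motors, was here the highest library. The 2 cKO libraries differed from each other, cKO 2 being the lowest of all 5. The FPKM summed over all loci was also lowest in cKO 2 (418191). Of the 13 tested members 8 had a negative and 5 a positive log2 change, and the median was -0.12 (-0.07 under upper quartile and -0.02 under quantile scaling). That median rests on cKO 2: without it the median was 0.12, and without cKO 1 it was -0.27. The summed level of the mitotic motors was 11.4% of that of the transport motors in control 1, 24.1% in control 2, 21.5% in control 3, 16.6% in cKO 1 and 24.4% in cKO 2, so the ratio did not separate the groups.

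**Figure D2:**
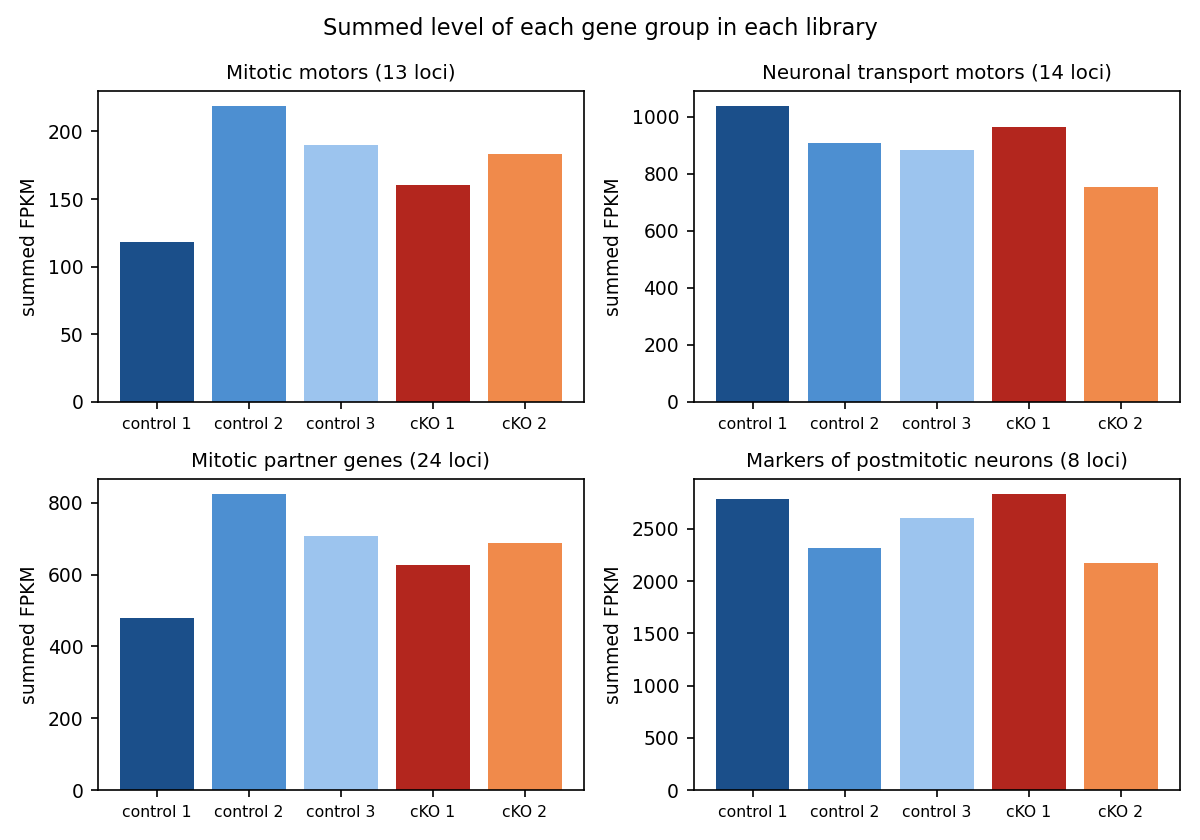
Summed FPKM of 4 gene groups in each library, with each axis starting at 0. The mitotic motors and their partner genes share the order of libraries, with control 1 lowest, and the transport motors and the neuron markers have their lowest sum in cKO 2.

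The neuron sum rests largely on Tubb3, the neuronal beta-tubulin gene, and its 8 markers went both ways, with 4 positive and 4 negative changes. Tubb3 was at 1343, 1324 and 1373 FPKM across the controls and 1411 and 1101 FPKM across the cKO libraries, and Gap43, a growth cone gene, was at 358, 158 and 269 FPKM across the controls and 248 and 70.8 FPKM across the cKO libraries. Dcx, a microtubule protein of migrating neurons, was instead above every control in both cKO libraries, at 163, 107 and 113 FPKM across the controls and 195 and 187 FPKM across the cKO libraries, and so was the synaptic gene Snap25, at 53.3, 40.6 and 47.3 FPKM across the controls and 63.5 and 62.6 FPKM across the cKO libraries. The part of neuron number in the transport sums was not tested.

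Kinesin-1, the main motor of fast axonal transport, is a pair of heavy chains (Kif5a, Kif5b or Kif5c) with a pair of light chains that bind cargo. Kif5c, an isoform enriched in neurons, was the most abundant heavy chain, at 139, 82.7 and 98.96 FPKM across the controls and 123 and 111 FPKM across the cKO libraries. Kif5a, restricted to neurons, was at 62.4, 49.5 and 49.8 FPKM across the controls and 58.5 and 34.3 FPKM across the cKO libraries, with cKO 2 below every other library and cKO 1 among the controls. Kif5b, the ubiquitous isoform, was at 29.3, 22.5 and 26.3 FPKM across the controls and 29.4 and 34.8 FPKM across the cKO libraries. It was the single transport member with both cKO values above every control, although cKO 1 exceeded control 1 only slightly, and its change was 0.29 (SE 0.16, adjusted p = 0.575), or 0.18 without cKO 2 and 0.41 without cKO 1. Kif5b made up 12.7% to 15.02% of the summed Kif5 level in the controls, 13.9% in cKO 1 and 19.4% in cKO 2, so this share overlapped between the groups.

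The light chains spanned a wide range of levels. Klc1, the highest of all kinesin loci, was at 269, 247 and 225 FPKM across the controls and 268 and 178 FPKM across the cKO libraries, and the groups overlapped. Klc2 was at 40.96, 44.02 and 39.02 FPKM across the controls and 33.3 and 25.3 FPKM across the cKO libraries, below every control in both cKO libraries. Its mean was 29.3 ± 5.69 in the cKO (SD, n = 2) against 41.3 ± 2.52 in the controls (SD, n = 3), a change of -0.49 (SE 0.16, adjusted p = 0.575). That change was -0.30 without cKO 2 and -0.69 without cKO 1. Klc4, a light chain with broad expression that was placed among the other members, was at 23.7, 35.8 and 26.8 FPKM across the controls and 23.5 and 14.9 FPKM across the cKO libraries, so cKO 1 lay barely under control 1 and cKO 2 well below (change -0.57, SE 0.26, adjusted p = 0.575). The Klc4 change was -0.26 without cKO 2 and -0.88 without cKO 1. Klc1 supplied 75.6% to 80.6% of the summed Klc1, Klc2 and Klc4 level in the controls and 82.5% and 81.5% in cKO 1 and 2. Klc3, a light chain of male germ cells, had a mean under 1 FPKM and was not tested.

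Kif21a and Kif21b, kinesin-4 motors that restrain microtubule growth and are abundant in neurons, had both cKO values below every control. Kif21a, mutated in congenital fibrosis of the extraocular muscles (chromosome 15, 90933275 to 91050382), was at 51.3, 50.3 and 48.8 FPKM across the controls and 39.01 and 33.1 FPKM across the cKO libraries. The controls lay close together, and both cKO libraries were well outside that range. Its change was -0.47 (SE 0.13, adjusted p = 0.575), ranging from -0.58 to -0.35 with a library left out. Kif21b, the second most abundant of the transport class, was at 112, 166 and 127 FPKM across the controls and 112 and 80.9 FPKM across the cKO libraries. Here cKO 1 lay next to control 1, so the separation rests on cKO 2 and the change was -0.48 (SE 0.24, adjusted p = 0.575). It was -0.25 without cKO 2 and -0.71 without cKO 1.

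The kinesin-3 and kinesin-2 motors of the transport class overlapped between the groups. Kif1a, which carries synaptic vesicle precursors, was at 112, 90.9 and 93.2 FPKM across the controls and 100.3 and 81.4 FPKM across the cKO libraries. Kif1b, which carries such precursors and mitochondria, was at 78.4 ± 3.59 against 78.7 ± 12.8 (cKO against control). Kif3a and Kif3b, which join with the adaptor Kifap3 for transport in cilia and axons, were at 37.7 ± 3.06 against 34.4 ± 12.8 and 18.03 ± 4.08 against 17.998 ± 2.05, in that order. Kif3c, a neuronal partner of Kif3a, was at 47.3 ± 4.96 against 42.8 ± 1.88. Kifap3 was higher in value in both cKO libraries than in any control, at 70.9, 40.4 and 57.5 FPKM across the controls and 78.6 and 81.1 FPKM across the cKO libraries, and did not pass (change 0.53, SE 0.25, adjusted p = 0.575). Kifc2, a minus end motor of neurons, was at 14.7, 4.997 and 8.39 FPKM across the controls and 7.66 and 4.28 FPKM across the cKO libraries. Control 1 was the highest there. Kif17, a dendritic kinesin-2, was at 0.853, 0.175 and 0.345 FPKM across the controls and 0.250 and 0.372 FPKM across the cKO libraries and was not tested.

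Cilium motors were mostly low, and 2 of 6 were tested. Kif7, which organises the tip of the primary cilium and controls Gli factors in the Hedgehog pathway (chromosome 7, 79698098 to 79715772), was at 3.93, 9.98 and 5.86 FPKM across the controls and 3.91 and 1.88 FPKM across the cKO libraries. Control 1 and cKO 1 were nearly equal while control 2 was far above both, and the change was -0.93 (SE 0.41, adjusted p = 0.575). It was -0.55 without cKO 2 and -1.32 without cKO 1. In the authors' deposited table Kif7 was not called (log2 fold change -1.19, q-value 0.0660). Kif24, which restrains cilium assembly at centrioles, was at 2.33 ± 0.189 against 2.51 ± 0.374. Motors of motile cilia were near the limit: Kif6, Kif9, Kif19a and Kif27 had means under 1 FPKM. Among them Kif19a, which sets the length of motile cilia, was at 0.307, 0.481 and 0.517 FPKM across the controls and 0.154 and 0.187 FPKM across the cKO libraries. Kif6 also had both cKO values below every control, while Kif9 and Kif27 overlapped between the groups. Kif27 shares its locus with the microRNA gene Mir6369, so its values cannot be split. Markers of multiciliated and choroid cells summed to 2.67 to 3.35 in the cKO and 7.95 to 8.91 in the controls. Of these, Folr1 was listed at 0 in both cKO libraries. Foxj1 was at 6.32, 5.77 and 4.22 FPKM across the controls and 3.06 and 2.35 FPKM across the cKO libraries. Ttr was at 0.070, 2.37 and 3.77 FPKM across the controls and 0.293 and 0.315 FPKM across the cKO libraries. Both cKO values of Ttr lay within the range of the controls. Whether these cells bear on the cilium motors was not tested.

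Among the other members, 9 of 11 were tested and 6 of the 9 had both cKO values below every control, where 15.6% of all tested loci did. The locus with the largest change was Kif26b, an atypical kinesin without motor activity that acts in cell adhesion and in Wnt5a signalling (chromosome 1, 178529125 to 178932857). It was at 10.4, 7.87 and 5.97 FPKM across the controls and 3.62 and 2.26 FPKM across the cKO libraries. Every library of the cKO was under the lowest control, and the mean was 2.94 ± 0.959 in the cKO (SD, n = 2) against 8.08 ± 2.22 in the controls (SD, n = 3), or 36.4% of the control mean. Its log2 change was -1.20 (SE 0.27, adjusted p = 0.575) and ranged from -1.45 to -0.95 with a library left out. In the authors' deposited table Kif26b was called lower (log2 fold change -1.46, q-value 0.00331). Its paralog Kif26a was at 28.9, 40.7 and 34.4 FPKM across the controls and 32.3 and 24.1 FPKM across the cKO libraries, with the groups overlapping (change -0.29, SE 0.21).

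Membrane motors of the kinesin-3 family had smaller negative values. Kif1c, which moves Golgi and secretory vesicles, was at 5.73, 7.40 and 6.03 FPKM across the controls and 5.47 and 3.88 FPKM across the cKO libraries (change -0.39, SE 0.19, adjusted p = 0.575). Its locus also carries the symbol of the microRNA gene Mir6925, and the values cannot be split between them. Kif13a, Kif13b and Kif16b, motors of endosomes, were at 7.24 ± 0.581 against 8.52 ± 0.805, 3.25 ± 0.645 against 4.20 ± 0.389 and 1.54 ± 0.283 against 1.96 ± 0.0200 (cKO against control), and in each both cKO values lay under all controls. Their changes were -0.21, -0.30 and -0.22 (limma adjusted p = 0.624, 0.579 and 0.660). These were -0.135, -0.141 and -0.11 without cKO 2, and -0.279, -0.451 and -0.337 without cKO 1. Of the 9 tested other members, cKO 2 was the lowest library in 7. The share of all tested loci with cKO 2 lowest was not counted, so this is not shown to be particular to these members.

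Kif2a, a kinesin-13 depolymerase that prunes axon branches and is mutated in cortical malformations, went the other way. It was at 39.96, 24.7 and 31.2 FPKM across the controls and 40.1 and 44.5 FPKM across the cKO libraries, so both cKO values exceeded all controls, cKO 1 by little over control 1. The change was 0.42 (SE 0.22, adjusted p = 0.575), or 0.25 without control 2 and 0.59 without control 1. Kif2a was placed among the other members, while the kinesin-13 members Kif2b and Kif2c were placed among the mitotic motors. The count of mitotic motors with both cKO values above every control depends on that placement. Kifc3, a minus end motor of adherens junctions, was at 8.98 ± 2.81 against 8.12 ± 1.90, and Kif12 was listed at 0 throughout.

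**Figure D3:**
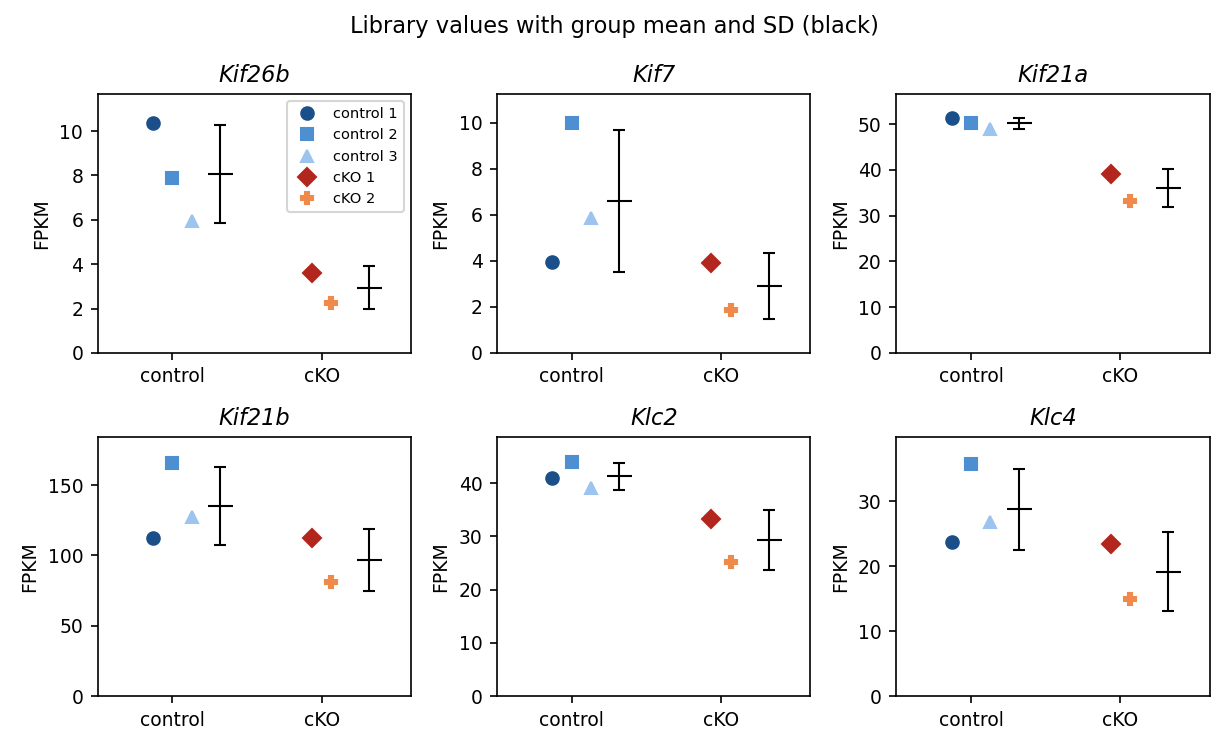
FPKM of the 6 members with the most negative changes among those whose groups did not overlap, 1 symbol per library, with the group mean and SD in black beside them and axes starting at 0. The cKO values lie clear of the controls for Kif26b, Kif21a and Klc2, while cKO 1 is next to control 1 for Kif7, Kif21b and Klc4.

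Over all 36 tested members, both cKO values lay below every control in 10, where 15.6% of all tested loci had that pattern, and above every control in 2, Kif2a and Kif5b, where 13.4% did. Of the 10, 3 belonged to the transport class, 1 to cilia and 6 to the others. None was a mitotic motor, which follows from control 1 being the lowest library in all 12 of those tested. Without control 1, which leaves c/c controls only and was added after the data were seen, 18 members lay below, where 28.6% of loci did, and 6 above, where 27.7% did. Of these 18, 6 were mitotic motors (Kif2c, Kif18b, Kif22, Kif23, Kif4 and Kifc1), and the median log2 change of the mitotic motors was then -0.15. That median was 0.19 without control 2 and -0.08 without cKO 2. Without cKO 1, 16 members lay below, where 34.5% of loci did, and 8 above, where 27.3% did. Without cKO 2, 10 lay below and 5 above, where 22.0% and 21.5% of loci did.

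**Figure D4:**
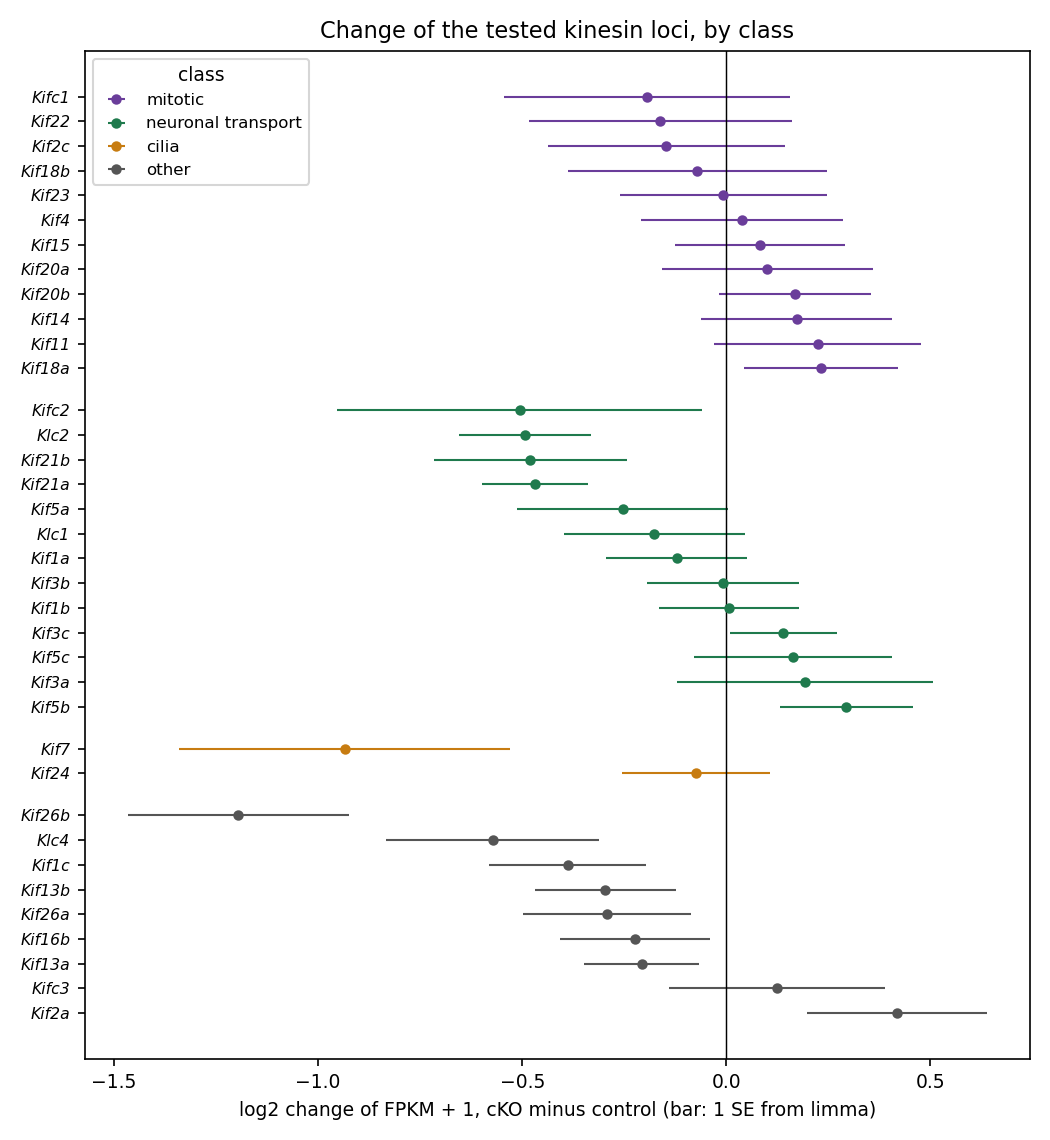
Log2 change of FPKM + 1 (cKO minus control) of the 36 tested members, with bars of 1 SE from limma, in 4 classes. The mitotic motors lie around 0, from -0.19 to 0.23, and Kif26b and Kif7 have the most negative values of all members.

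Genes that work with the mitotic motors had the same order of libraries. All 24 spindle and midzone genes were tested and 0 were called, with 15 positive and 9 negative changes and a median of 0.04 (-0.19 without control 1 and 0.22 without control 2). Control 1 was the lowest library in 21 of the 24. The summed level was 479.7, 824 and 707 FPKM across the controls and 627 and 688 FPKM across the cKO libraries. Racgap1, the partner of Kif23, was at 40.6, 64.8 and 54.6 FPKM across the controls and 48.003 and 45.8 FPKM across the cKO libraries, and Prc1, the midzone bundler that recruits Kif4, was at 22.2, 32.8 and 30.7 FPKM across the controls and 29.3 and 34.9 FPKM across the cKO libraries. Cenpe, a kinetochore kinesin whose symbol lies outside the naming rule, was at 10.998 ± 0.984 against 11.4 ± 2.12 (change -0.03, SE 0.19). Aurkb, the kinase brought to the midzone by Kif20a, was at 29.8 ± 3.72 against 32.5 ± 9.34, and Tpx2, which targets Kif11 to the spindle, was at 30.8 ± 1.75 against 31.04 ± 8.45.

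The 4 mitotic partners with the smallest p-values had values in both directions, and none was called. Ckap2, a spindle protein, was at 12.5, 17.8 and 18.1 FPKM across the controls and 19.6 and 25.6 FPKM across the cKO libraries (change 0.47, SE 0.22, adjusted p = 0.575), above every control in both cKO libraries. Ect2, the exchange factor that centralspindlin activates for cytokinesis, was at 12.8, 15.9 and 16.6 FPKM across the controls and 16.4 and 23.2 FPKM across the cKO libraries (change 0.36, SE 0.20, adjusted p = 0.575). Numa1, which anchors dynein at spindle poles, was at 48.1, 74.02 and 56.03 FPKM across the controls and 49.5 and 36.1 FPKM across the cKO libraries (change -0.46, SE 0.24, adjusted p = 0.575), and Cdca8, a subunit of the chromosomal passenger complex, was at 31.99, 66.8 and 54.1 FPKM across the controls and 40.9 and 25.7 FPKM across the cKO libraries (change -0.57, SE 0.36, adjusted p = 0.603). In Numa1 and Cdca8 cKO 2 was below all other libraries and cKO 1 above control 1. The 7 markers of cycling cells had positive changes in all 7 cases, and control 1 was the lowest library in each. Their summed level was 239, 375 and 336 FPKM across the controls and 328 and 411 FPKM across the cKO libraries. Mcm2, Mcm6 and Mki67 had both cKO values within the range of the controls, and Ccna2 alone had both above every control. Mki67, Top2a and Ccnb1 are also among the mitotic partners. Against controls 2 and 3 alone, Mki67 was the 1 marker of the 7 with both cKO values lower (37.7 and 39.4 against 43.8 and 39.96 FPKM). Mcm2 and Mcm6 had their highest values in control 2, at 69.1 and 66.2 FPKM. How far the shared sign rests on control 1 was not tested.

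Adaptors of the transport motors and subunits of dynein, the opposite motor, were also without a call. Of 36 such genes 35 were tested, with 23 negative and 12 positive changes and a median of -0.11, which was -0.24 without cKO 1 and -0.03 without cKO 2. The 25 adaptors summed to 1333, 1258 and 1265 FPKM across the controls and 1261 and 959.9 FPKM across the cKO libraries, so cKO 2 was lowest there too. The 11 dynein genes had a median change of -0.01, which was 0.04 and 0.07 under upper quartile and quantile scaling, and summed to 707, 705 and 703 FPKM across the controls and 723 and 644 FPKM across the cKO libraries.

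The 4 transport partners with the smallest p-values are given with their values. Arl8b, which links lysosomes to kinesin-1 and kinesin-3, was at 32.1, 26.9 and 25.99 FPKM across the controls and 36.2 and 44.6 FPKM across the cKO libraries (change 0.50, SE 0.16, adjusted p = 0.575), and Rhot1, the mitochondrial receptor for kinesin-1, was at 18.5, 15.3 and 16.2 FPKM across the controls and 20.99 and 25.5 FPKM across the cKO libraries (change 0.46, SE 0.15, adjusted p = 0.575). Both had each cKO value above all controls. Pafah1b1, the lissencephaly gene and a regulator of dynein, was at 69.9, 45.4 and 51.6 FPKM across the controls and 72.4 and 80.9 FPKM across the cKO libraries (change 0.48, SE 0.21, adjusted p = 0.575). Its cKO values were also above all controls, cKO 1 by little over control 1. Map7d1, of the family that recruits kinesin-1 to microtubules, was at 133, 157 and 131 FPKM across the controls and 122 and 65.96 FPKM across the cKO libraries (change -0.63, SE 0.28, adjusted p = 0.575). It was lower in value in both cKO libraries, and mainly in cKO 2. Of the 35 tested transport partners, both cKO values were above every control in 5, where 13.4% of all tested loci had that pattern. Both were below every control in 6, where 15.6% of all tested loci did so.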

How the data were processed

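The 5 RNA libraries were used, and 6 samples of ATAC-seq (open chromatin) stand as not analysed here. The authors deposited 1 table with a value per locus and library, read here as FPKM computed and scaled by the authors before deposit. No label names that unit, which was inferred from the Cufflinks-style column headers and the submitters' processing notes. The deposited table also held the authors' comparison, giving each locus a log2 fold change, p-value and q-value. Per the submitters' processing notes, CASAVA, TopHat, Cufflinks, Bowtie2 and MACS were used with mm10, with no version or role stated. Annotation and strand setting: not given in the sources used here. FPKM carries no counts, the lowest values did not fall on whole multiples, and depth is unknown. The commonest ratio of values under 0.05 FPKM put the libraries at 1.11 to 1.68 times control 1, with 21% to 56% of loci near it, so the precision of low values cannot be stated.

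Groups came from the titles. Loci whose mean over the libraries reached 1 FPKM were fitted as log2(FPKM + 1) in limma 3.58.1 (R 4.3.3, intensity trend, 3 residual and 2.49 prior degrees of freedom), with Benjamini-Hochberg adjustment over all 12672 loci. The script was tested on simulated data. Members, roles, partner lists and the markers were chosen with earlier results of these data known. Named genes were, per class, the 4 members with the smallest p and the 2 with the highest level, members called in either table, and per partner list the 4 with the smallest p plus 6 direct partners. Other members were named after their values were seen. Alternatives were a pseudocount of 0.1, no filter, a minimum mean of 5 FPKM, upper quartile and quantile scaling, no trend, the replicate number as a block and each library left out. Motifs were matched in RefSeq promoters of GRCm38.p6 (Python 3.11.15, pandas 2.3.3).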

Additional observations from a re-analysis of the deposited data

How the results depend on the processing

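No member was called under any of the 12 alternatives, and the smallest adjusted p of a member ranged from 0.315 (without control 1) to 0.999 (without cKO 2). The directions of 17 of the 36 tested members held throughout. The other 19 changed sign under at least 1 alternative, in 37 of 428 values, of which 30 came from leaving out a library. Over all tested loci 6 passed, against 3 with a block for replicate number, 15, 14, 25 and 37 without control 1, control 2, cKO 1 and cKO 2. A lone cKO library is there assumed to vary like the controls. With upper quartile and quantile scaling Kif23 was at 0.0416 and 0.0392 and Kif3b at 0.0398 and 0.028.

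A block for replicate number, in which control 3 stands alone and so adds nothing, put Kif1b at -0.0339, Kif23 at 0.0749 and Kif3b at 0.00101, the mitotic median at 0.13 and the transport median at -0.16. The numbers share no stated source (deviations of same-numbered libraries correlated at -0.07 and -0.11), so the block is not a pairing.

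Leaving out each library gave these ranges of log2 change: Kif11 -0.000901 to 0.36, Kif14 -0.00291 to 0.35, Kif15 -0.082 to 0.22, Kif18b -0.35 to 0.18, Kif20a -0.11 to 0.31, Kif22 -0.47 to 0.0695, Kif23 -0.23 to 0.14, Kif2c -0.42 to 0.0432, Kif4 -0.19 to 0.19, Kifc1 -0.52 to 0.0754, Kif1a -0.27 to 0.0277, Kif1b -0.0789 to 0.13, Kif3a -0.0672 to 0.46, Kif3b -0.23 to 0.21, Kif5a -0.63 to 0.13, Kif5c -0.00244 to 0.37, Klc1 -0.47 to 0.12, Kif24 -0.15 to 0.00602 and Kifc3 -0.17 to 0.42. The transport median ranged from -0.27 to 0.12 and that of its partners from -0.24 to -0.0311. Members below every control numbered 10 to 18, and those above 2 to 8, with fewer libraries to exceed by construction.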
